A study of Fukomys damarensis and Heterocephalus glaber and Cavia porcellus with 28 samples.

Results

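The genes described here are 53 enzymes of drug and toxin metabolism out of the 13928 genes in each tissue table. They were chosen by mouse gene symbol, by a rule that uses no measured value, although the families were picked with earlier results of these data known. The symbols belong to the cytochrome P450 families Cyp1 to Cyp4 (13 genes), flavin monooxygenases (Fmo, 3 genes), aldehyde dehydrogenases (Aldh, 16 genes), alcohol dehydrogenases (Adh, 1 gene), epoxide hydrolases (Ephx, 3 genes), glutathione S-transferases (Gst, 8 genes), microsomal glutathione S-transferases (Mgst, 2 genes), sulfotransferases (Sult, 6 genes) and UDP-glucuronosyltransferases (Ugt, 1 gene). These families hold enzymes of normal metabolism as well, such as Aldh4a1 of proline breakdown and Ugt8a of myelin lipid synthesis. They are covered only in part. Cyp3a13, Ugt1a1, Ugt2a3, Sult1a1, Gsta4, Gstm1, Fmo1, Aldh1a1, Adh1 and Adh4, all with textbook roles, are not among the 53 genes.

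The study concerned the evolution of gene expression in 2 mole-rat species, both burrowing African rodents, with guinea pig and mouse as outgroups. Total RNA of heart and liver was depleted of ribosomal RNA and sequenced. Naked mole-rats gave 3 hearts and 4 livers at 13 to 17 months of age, Damaraland mole-rats 5 hearts and 5 livers at 36 to 48 months, guinea pigs 3 hearts and 3 livers at 2.3 months, and mice 3 hearts and 2 livers at 2 months. All samples were labelled male except Damaraland liver replicate 4, which was labelled female. The labels name 18 animals, of which 10 gave both tissues, and they give no strain, diet, treatment or allele. For 1 Damaraland animal the age label was 48 months on its heart sample and 36 months on its liver sample. Age and species cannot be told apart in this design, so a species difference below is a difference between these groups of animals.

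Foreign compounds are cleared in hepatocytes in steps. Phase I enzymes such as the P450s, flavin monooxygenases, alcohol and aldehyde dehydrogenases and epoxide hydrolases oxidise, reduce or hydrolyse a compound. Phase II enzymes then join the product to glutathione, sulfate or glucuronic acid so that it can be exported, and many genes of both phases are induced by receptors that sense the compounds, such as the aryl hydrocarbon receptor.

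Values are given as scaled reads, the recovered reads of a gene divided by the size factor of its library. Scaled reads are not corrected for gene length, so they compare libraries for the same gene and never 2 genes with each other. Differences between species are on the deposited log2-like scale, on which 1 unit is close to a 2-fold change for abundant genes and understates the change of rare genes. They come from a limma fit over all genes tested in a tissue. A gene was called when its adjusted p was under 0.05 and its difference was at least 1. The p-values set a difference against the spread between these few animals, pooled over all species for each gene. A species with a wide spread therefore weighs on every comparison of that gene.

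Depth ran from 11220505 to 21467939 recovered reads per liver library and from 4089633 (naked mole-rat heart replicate 3) to 26985779 per heart library. Marker genes bore on the tissue labels as follows. Hepatocyte markers took 7.63% to 17.0% of the reads of every liver, and cardiomyocyte markers took at most 0.0239%. In heart, cardiomyocyte markers took 2.81% to 5.24% of reads in naked mole-rats, 9.26% to 11.9% in Damaraland mole-rats, 5.49% to 6.80% in guinea pigs and 10.2% to 11.1% in mice. In bulk tissue, fewer cells of a type and less RNA per cell cannot be told apart.

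In liver, 41 of the 53 genes passed the filter on low values, and these were the 9 P450 genes, 3 Fmo, 15 Aldh, 1 Adh, 2 Ephx, 8 Gst, 2 Mgst and 1 Sult gene. The other 12 (Cyp1b1, Cyp2g1, Cyp2w1, Cyp4x1, Aldh3a1, Ephx4, Sult1d1, Sult2b1, Sult4a1, Sult6b1, Sult6b2 and Ugt8a) were not tested in liver, and Sult6b2 was at 0 in every liver. A gene that passed only through a species in which it was abundant had to differ, so the counts that follow describe the genes and are no test of the group. The p-values of such genes have the same limit. Among them in liver were Cyp2f2, Aldh1a3, Aldh1l2, Aldh1a2, Sult1c2, Cyp2s1, Cyp4f39 and Fmo2, which dropped out when every species had to pass the filter.

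Between at least 1 pair of species, 37 of the 41 genes were called in liver, beside 76.4% of all genes tested. The 4 that were not were Aldh4a1, Aldh6a1, Cyp2r1 (a vitamin D 25-hydroxylase) and Gstcd. The distance from the highest to the lowest species mean had a median of 2.73 over the 41 genes and 1.58 over all genes tested. It was 4 or more for 13 of the 41 genes (31.7%) and for 6.32% of all genes tested. The colour map of genes by library shows that the order of the species differed from gene to gene within every family that held several genes.

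With the mole-rats set against the outgroups, 14 genes were higher and 11 lower in the average of the mole-rats, beside 15.1% higher and 13.0% lower among all genes tested. The median of the size of this difference was 1.27 over the 41 genes and 0.58 over all genes tested. Only 5 of the 25 were called in the same direction in all 4 comparisons of a mole-rat with an outgroup. These were Cyp1a2, Aldh1a3 and Aldh1l2, higher in both mole-rats (3 genes, beside 3.42% of all genes), and Cyp2f2 and Aldh16a1, lower in both (2 genes, beside 2.87%).

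More genes set a single species apart. The naked mole-rat was called higher than each of the other 3 species for 7 genes and lower for 3, beside 5.83% and 4.45% of all genes tested. The Damaraland mole-rat stood alone as higher for 2 genes and lower for 4 (beside 5.51% and 3.30%), the guinea pig as higher for 4 and lower for 3 (beside 5.10% and 4.28%), and the mouse as higher for 4 and lower for 7 (beside 6.33% and 5.83%). Between the mole-rats, 11 genes were higher and 8 lower in the naked mole-rat, beside 16.6% and 17.6% of all genes. Most of them are described below.

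Among the P450 genes, Cyp2e1 (ENSMUSG00000025479), the enzyme that oxidises ethanol and other small solvents, had the widest spread within a species. Scaled reads of Cyp2e1 were 238137, 220461, 178946 and 115178 in naked mole-rat livers, 264, 150, 336, 32352 and 36305 in Damaraland livers, 248469, 82136 and 226759 in guinea pig livers and 108283 and 63187 in mouse livers. All 5 Damaraland livers lay below every other liver, and Damaraland replicates 1 to 3 lay far below replicates 4 and 5. On the log2-like scale the mean was 17.47 ± 0.47 (SD, n = 4) in the naked mole-rat and 10.89 ± 3.83 (SD, n = 5) in the Damaraland mole-rat. The naked minus Damaraland difference was 6.58 (SE 1.29; limma adjusted p 0.000236), and it was 9.36 without Damaraland replicates 4 and 5. Cyp2e1 was lower in the Damaraland mole-rat than in guinea pig by 6.45 (SE 1.40) and than in mouse by 5.44 (SE 1.60), so it was called lower in the Damaraland mole-rat alone. That call was lost without mouse replicate 1, where the Damaraland minus mouse adjusted p was 0.0626.

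The low Damaraland livers were the 3 labelled 36 months, with a mean of 250.04 scaled reads, and the higher ones were the 2 labelled 48 months, with a mean of 34328.5. The gap between these sets was 6.44 on the log2-like scale, and among 10887 genes tested no other had a gap in either direction as large. The sets lay at least 1 apart for 12 genes (8 higher and 4 lower in the older label), and Cyp2e1 was the only member among them. This split was seen in the data and not tested: 1 of the 2 higher livers was the female, and 1 of the 3 low ones came from the animal with the conflicting age labels. Cyp2e1 is made in hepatocytes around the central vein. Glul, which marks the innermost of these cells, had 11454, 13037, 6153, 15862 and 10387 scaled reads in the Damaraland livers in the same order. The sets overlapped for Glul. The other central-vein markers are not given by Damaraland library here, and the part of these cells in the split was not tested. The average of the mole-rats was below that of the outgroups for Cyp2e1 (-2.66, SE 1.09; limma adjusted p 0.0386). Leaving out any single liver except naked mole-rat replicate 1 or 2, Damaraland replicate 4 or 5 or guinea pig replicate 2 ended that call, with limma adjusted p-values of 0.0536 to 0.119. The call also ended with no filter on low values (adjusted p 0.0982) and with voom on the recovered reads (adjusted p 0.0862). Without Damaraland replicates 4 and 5 the average difference was -4.05 (limma adjusted p 7.31e-09).

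The inducible gene Cyp1a1 (ENSMUSG00000032315), which oxidises polycyclic aromatic hydrocarbons and is a target of the aryl hydrocarbon receptor, was abundant in every species but the mouse. Scaled reads of Cyp1a1 were 48067, 23384, 42978 and 35201 in naked mole-rat, 5526, 16428, 3781, 13328 and 4812 in Damaraland mole-rat, 15066, 9463 and 16165 in guinea pig and 21.2 and 16.7 in mouse livers. All naked mole-rat livers lay above every other liver, Damaraland and guinea pig livers overlapped, and the mouse livers lay far below. Cyp1a1 was higher in the naked mole-rat than in the Damaraland mole-rat by 2.28 (SE 0.37), than in guinea pig by 1.45 (SE 0.42) and than in mouse by 9.49 (SE 0.47), with limma adjusted p-values of 0.00559 or less. The guinea pig minus mouse difference was 8.04 (SE 0.50; limma adjusted p 5.43e-10).

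Its neighbour in function Cyp1a2 (ENSMUSG00000032310), which oxidises caffeine and aromatic amines and is usually the constitutive liver form, differed far less. Scaled reads of Cyp1a2 were 40650, 37745, 63576 and 47007 in naked mole-rat, 79963, 67563, 38786, 50317 and 46218 in Damaraland mole-rat, 31906, 7396 and 16080 in guinea pig and 18597 and 21082 in mouse livers. Every mole-rat liver lay above every outgroup liver, and the mole-rats overlapped each other. The average of the mole-rats was higher by 1.51 (SE 0.28; limma adjusted p 0.000127). The 4 comparisons of a mole-rat with an outgroup gave 1.22 to 1.81, and the call in all 4 was lost when either mouse liver was left out (naked minus mouse adjusted p 0.104 without replicate 1 and 0.0629 without replicate 2). Cyp1a1 and Cyp1a2 are close paralogs, and how reads shared by such genes were split is not stated. Their summed scaled reads were 84652 ± 18757 (SD, n = 4) in naked mole-rat, 65344 ± 19236 (SD, n = 5) in the Damaraland mole-rat, 32025 ± 15058 (SD, n = 3) in guinea pigs and 19858 ± 1754 (SD, n = 2) in mice.

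Cyp2f2 (ENSMUSG00000052974), a P450 of mouse lung and liver that activates naphthalene, had almost no reads in either mole-rat. Scaled reads of Cyp2f2 were 15.9, 5.53, 5.93 and 5.82 in naked mole-rat, 5.57, 7.36, 10.7, 3.16 and 11.7 in Damaraland mole-rat, 3853, 3500 and 5598 in guinea pig and 27223 and 36573 in mouse livers. Every mole-rat liver was far below every outgroup liver, and the guinea pig mean was 521-fold the naked mole-rat mean. The average difference was -8.33 (SE 0.15; limma adjusted p 7.66e-17). Cyp2f2 passed the filter only through the outgroups, so it had to differ. Mouse livers were above guinea pig livers by a further 2.89 (SE 0.24; limma adjusted p 1.73e-08), which also set the mouse apart from the other 3 species. Outside the enzyme families, the central-vein transporter Slc1a2, fixed as a marker of that zone, was low in the same libraries (1.38 to 18.9 scaled reads in mole-rat livers and 3132 to 4986 in outgroup livers). Of the 6 other central-vein markers, Glul, Lgr5, Axin2, Rgn and Oat were not called in the average of the mole-rats, and Cyp7a1 was called higher. Summed over the 7 markers, the list took 0.179% to 0.269% of reads in naked mole-rat, 0.223% to 0.345% in Damaraland mole-rat, 0.151% to 0.217% in guinea pig and 0.388% to 0.403% in mouse livers. Its part in the Cyp2f2 difference was not tested.

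Of the remaining P450 genes, Cyp2u1 (ENSMUSG00000027983), which hydroxylates long-chain fatty acids, was 306 to 630 scaled reads in mole-rat livers, 24 to 29.4 in guinea pig livers and 3354 and 2311 in mouse livers. The mole-rats lay between the outgroups without overlap, and the guinea pig minus mouse difference was -5.59 (SE 0.23; limma adjusted p 3.08e-12). Cyp4v3 (ENSMUSG00000079057), a fatty acid omega-hydroxylase, was high in mouse alone: 12984 and 10791 scaled reads, against 730 to 1872 in the other 12 livers. Cyp2s1 (ENSMUSG00000040703), a P450 mostly of epithelia outside the liver, was 175 to 372 scaled reads in Damaraland livers, 85.9 to 112 in guinea pig livers and 4.15 to 14.5 in naked mole-rat and mouse livers. It was 3.13 lower in the naked than in the Damaraland mole-rat (SE 0.18; limma adjusted p 9.8e-11). Its call as higher in the Damaraland mole-rat alone was lost without Damaraland replicate 4, where the difference to guinea pig was 0.98. Cyp4f39 (ENSMUSG00000061126), a fatty acid omega-hydroxylase of skin lipid synthesis, had 276, 270 and 380 scaled reads in guinea pig livers and at most 8.26 in any other liver. It was called higher in guinea pig alone, and its mean fell under the filter when any guinea pig liver was left out. Cyp2r1 (ENSMUSG00000030670) ran from 173 to 623 scaled reads in all livers, and no difference was called with all libraries in the fit.

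Among the flavin monooxygenases, which oxidise nitrogen and sulfur in drugs and food amines, Fmo5 (ENSMUSG00000028088), which acts as a Baeyer-Villiger monooxygenase, was low in the naked mole-rat alone. Scaled reads of Fmo5 were 1196, 1481, 2187 and 1508 in naked mole-rat, 24950, 18021, 18538, 16218 and 14873 in Damaraland mole-rat, 10211, 9731 and 13461 in guinea pig and 8191 and 10382 in mouse livers. The naked mole-rat livers lay below all others and the Damaraland livers above all others. The naked mole-rat was lower than the Damaraland mole-rat by 3.52 (SE 0.19; limma adjusted p 5.73e-11), than guinea pig by 2.79 (SE 0.22) and than mouse by 2.54 (SE 0.25). Fmo2 (ENSMUSG00000040170), the lung form, was 3.34 to 8.58 scaled reads in Damaraland livers, 32 to 137 in naked mole-rat livers, 9.79, 254 and 45.4 in guinea pig livers and 173 and 145 in mouse livers. Fmo2 was called lower in the Damaraland mole-rat alone, and this rested on guinea pig replicate 2: without it the difference to guinea pig was -0.66 (limma adjusted p 0.101). The average difference of the mole-rats, -1.12, fell under the size threshold without naked mole-rat replicate 4 (-0.99) and without guinea pig replicate 2 (-0.73).

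**Figure D1:**
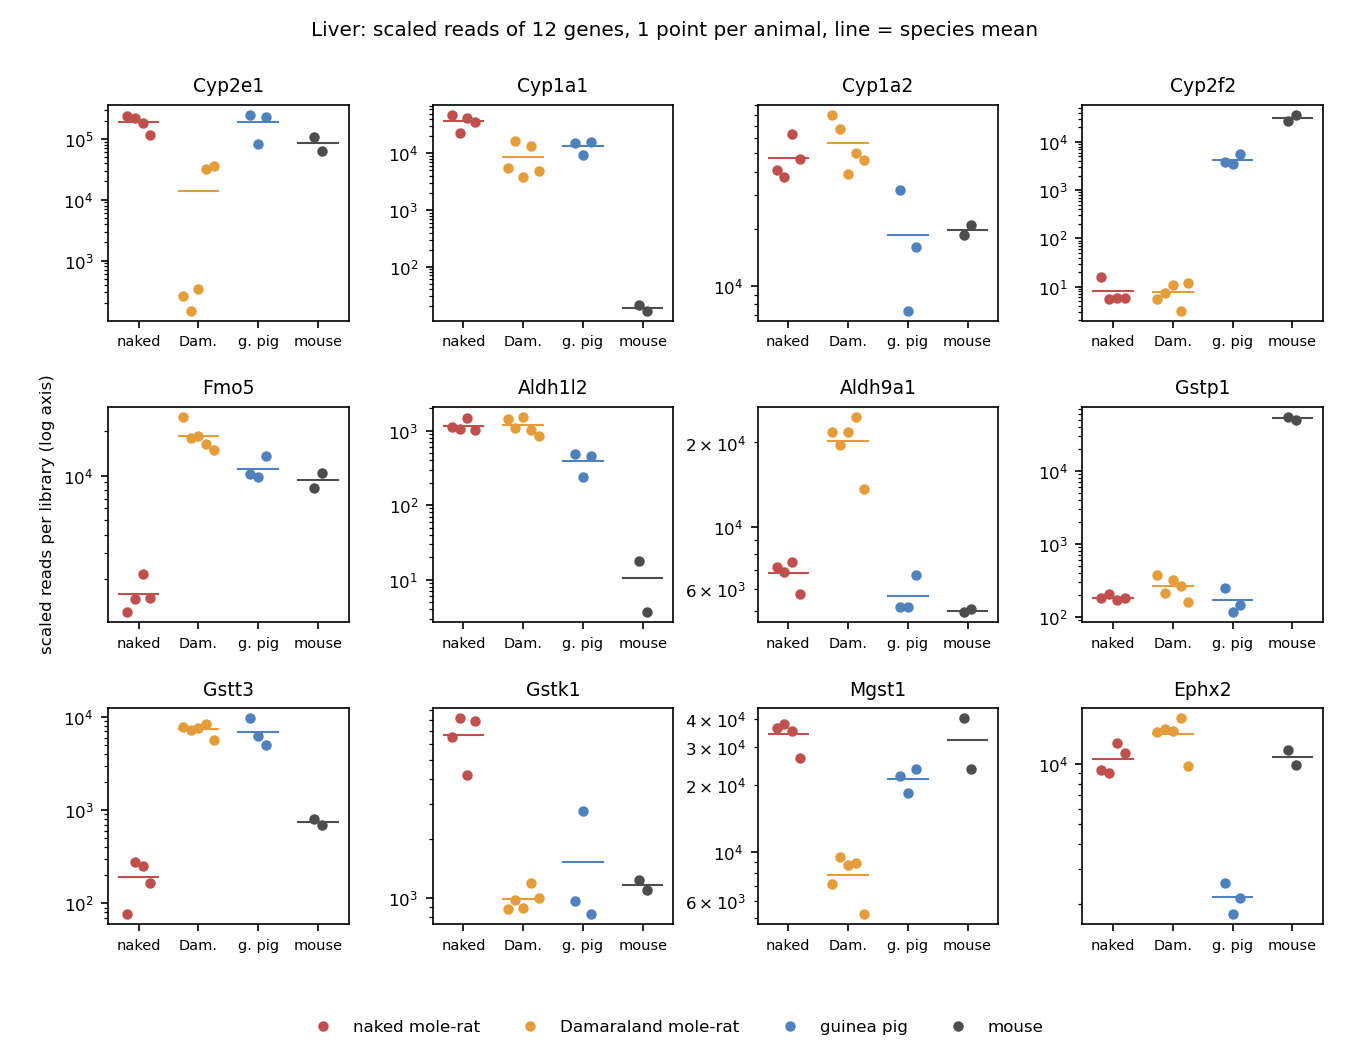
Scaled reads per liver library (log axis) of 12 genes in the 4 species, with 1 point per animal and a line at the species mean. The mouse livers are lowest for Cyp1a1 and Aldh1l2 and highest for Cyp2f2 and Gstp1, the naked mole-rat livers are lowest for Fmo5 and Gstt3, and Damaraland livers are lowest for Cyp2e1 and Mgst1.

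Of the 5 genes called in both mole-rats, Aldh1l2, Aldh1a3 and Aldh16a1 were aldehyde dehydrogenases, a family with 15 of the 41 genes tested. Aldh1l2 (ENSMUSG00000020256), the mitochondrial 10-formyltetrahydrofolate dehydrogenase of one-carbon metabolism, had 1109, 1040, 1471 and 1022 scaled reads in naked mole-rat, 1438, 1079, 1541, 1026 and 835 in Damaraland mole-rat, 486, 235 and 459 in guinea pig and 17.7 and 3.62 in mouse livers. Both mole-rats lay above the guinea pigs, which lay above the mice. The average difference was 3.24 (SE 0.19; limma adjusted p 1.51e-10), and the naked minus Damaraland difference was -0.01 (SE 0.22; limma adjusted p 0.975).

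Aldh1a3 (ENSMUSG00000015134), which makes retinoic acid from retinaldehyde, was a rare transcript that was higher in both mole-rats. Scaled reads of Aldh1a3 were 121, 67.7, 108 and 62.5 in naked mole-rat, 371, 89.2, 128, 136 and 119 in Damaraland mole-rat, 10.5, 4.96 and 3.39 in guinea pig and 9.44 and 5.8 in mouse livers. Every mole-rat liver was above every outgroup liver, with Damaraland replicate 1 highest. The average difference was 2.12 (SE 0.23; limma adjusted p 2.92e-07). Aldh16a1 (ENSMUSG00000007833), a relative without known catalytic activity in mammals, was lower in both mole-rats: 132 to 339 scaled reads in naked and 205 to 359 in Damaraland mole-rat, 1732 to 2708 in guinea pig and 913 and 985 in mouse livers. The average difference was -2.38 (SE 0.18; limma adjusted p 3.33e-09), and guinea pig was also above mouse, by 1.23 (SE 0.29; limma adjusted p 0.00145).

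Aldh9a1 (ENSMUSG00000026687), which oxidises aminoaldehydes on the route to carnitine and GABA, was high in the Damaraland mole-rat alone. Scaled reads of Aldh9a1 were 7175, 6918, 7482 and 5738 in naked mole-rat, 21761, 19557, 21756, 24758 and 13645 in Damaraland mole-rat, 5163, 5156 and 6727 in guinea pig and 4945 and 5074 in mouse livers. All Damaraland livers lay above all others. Naked mole-rat livers were below Damaraland livers, by a difference of -1.55 (SE 0.18; limma adjusted p 5.69e-07).

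Aldh5a1 (ENSMUSG00000035936), succinate semialdehyde dehydrogenase of GABA breakdown, was highest in the naked mole-rat (4214 to 6380 scaled reads) and lowest in guinea pig (531 to 700), with Damaraland livers at 1580 to 2194 and mouse livers at 1494 and 1650. It was called as higher in the naked mole-rat alone and as lower in guinea pig alone. Aldh2 (ENSMUSG00000029455), the mitochondrial enzyme that clears acetaldehyde, was 14959 to 19014 scaled reads in naked mole-rat livers and 25256 to 43550 in all others. The naked minus Damaraland difference for Aldh2 was -1.01 (SE 0.19; limma adjusted p 0.000138), at the edge of the size threshold. It was -0.94, -0.99 and -0.93 without naked mole-rat replicate 4, Damaraland replicate 1 and Damaraland replicate 4. Aldh18a1 (ENSMUSG00000025007), which makes the proline precursor in proline synthesis, and Aldh1a2 (ENSMUSG00000013584), a second retinaldehyde dehydrogenase, were high in guinea pig alone, with 1018 to 1230 and 159 to 480 scaled reads in guinea pig livers against at most 223 and 15.2 elsewhere. Of the other 7 Aldh genes tested in liver, Aldh7a1 was lower in the average of the mole-rats (-1.27, SE 0.18), Aldh3a2, of fatty aldehyde oxidation, was lower in the naked than in the Damaraland mole-rat (-1.17, SE 0.13), and neither contrast called Aldh1l1, Aldh3b1, Aldh4a1, Aldh6a1 or Aldh8a1. Aldh7a1 and Aldh3a2 were singled out after their values were seen.

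Adh5 (ENSMUSG00000028138), the formaldehyde-clearing alcohol dehydrogenase and the only gene of its family here, had 2466, 2411, 3455 and 2647 scaled reads in naked mole-rat, 1768, 1378, 1504, 1621 and 1574 in Damaraland mole-rat, 4291, 4906 and 5738 in guinea pig and 6415 and 7851 in mouse livers. The 4 species did not overlap. The average of the mole-rats was 1.50 lower (SE 0.12; limma adjusted p 1.01e-08), while the naked minus guinea pig difference of -0.85 kept Adh5 out of the genes called in both mole-rats.

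The epoxide hydrolases split by species and enzyme. Ephx1 (ENSMUSG00000038776), the microsomal enzyme that opens reactive epoxides of drugs, was 26110 to 53190 scaled reads in mole-rat livers and 29581 to 38830 in guinea pig livers, which overlapped, and 6342 and 6134 in mouse livers. The mouse was lower than each of the other species by 2.34 to 2.73. Ephx2 (ENSMUSG00000022040), the soluble enzyme that acts on lipid epoxides, was low in guinea pig alone, with 2558, 1781 and 2141 scaled reads against 9042 to 16935 in every other liver. The guinea pig minus mouse difference for Ephx2 was -2.32 (SE 0.24; limma adjusted p 4e-07).

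Among the glutathione S-transferases, Gstp1 (ENSMUSG00000060803), the pi class form known as abundant in the liver of male mice, separated mouse from the other 3 species. Scaled reads of Gstp1 were 181, 206, 168 and 180 in naked mole-rat, 380, 210, 319, 268 and 161 in Damaraland mole-rat, 245, 115 and 147 in guinea pig and 55144 and 48862 in mouse livers. The 3 other species overlapped, and the mouse mean was 283-fold that of the naked mole-rat. The naked minus mouse difference was -7.88 (SE 0.27; limma adjusted p 1.46e-13), and the Damaraland and guinea pig minus mouse differences were -7.46 and -8.03. Both mouse livers were from males.

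Gstt3 (ENSMUSG00000001665) and Gstt1 (ENSMUSG00000001663), theta class genes that act on small halogenated compounds, went in opposite directions between the mole-rats. Scaled reads of Gstt3 were 76.5, 280, 253 and 165 in naked mole-rat, 7752, 7290, 7716, 8474 and 5607 in Damaraland mole-rat, 9706, 6270 and 4988 in guinea pig and 801 and 702 in mouse livers. The naked mole-rat livers were below all others, and the naked minus Damaraland difference of -5.10 (SE 0.26; limma adjusted p 2.13e-11) was the most negative among the 41 genes. Those of Gstt1 were 1151, 1694, 991 and 1559 in naked mole-rat and 599, 496, 349, 553 and 306 in Damaraland mole-rat, against 1023 to 1457 in guinea pig and 2415 and 1731 in mouse livers. Damaraland livers were the lowest, and the naked minus Damaraland difference was 1.48 (SE 0.21; limma adjusted p 7.78e-06). The split of shared reads between these paralogs is not stated either, and their sum was 1542 ± 369 (SD, n = 4) scaled reads in naked mole-rat, 7828 ± 1166 (SD, n = 5) in the Damaraland mole-rat, 8164 ± 2673 (SD, n = 3) in guinea pigs and 2824 ± 554 (SD, n = 2) in mice.

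Gstk1 (ENSMUSG00000029864), the kappa class enzyme of mitochondria and peroxisomes, was high in the naked mole-rat alone. Its scaled reads were 6522, 8142, 4185 and 7888 in naked mole-rat, 877, 977, 895, 1195 and 1003 in Damaraland mole-rat, 969, 2762 and 830 in guinea pig and 1241 and 1099 in mouse livers. The naked mole-rat livers were above all others, and guinea pig replicate 2 was the highest of the rest. The naked minus Damaraland difference was 2.67 (SE 0.27; limma adjusted p 1.7e-07). The average difference of both mole-rats, 1.02, was at the size threshold and fell to between 0.86 and 0.98 without naked mole-rat replicate 2 or 4, Damaraland replicate 4, guinea pig replicate 1 or 3 or mouse replicate 2.

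Gstz1 (ENSMUSG00000021033), maleylacetoacetate isomerase of tyrosine breakdown, was lowest in the naked mole-rat, at 1368 to 1740 scaled reads against 3663 to 7012 in the other livers. Gstm5 (ENSMUSG00000004032), a mu class form, was highest in the naked mole-rat, at 3088 to 4356 scaled reads, and lowest in mouse, at 76.7 and 95.7, with 1058 to 1720 in the others. Gsto1 (ENSMUSG00000025068), the omega class form with thiol reductase activity, was low in mouse alone, at 1328 and 1128 scaled reads against 2859 to 11032 elsewhere. No difference was called for Gstcd.

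The microsomal glutathione transferases, membrane enzymes that also reduce lipid hydroperoxides, differed between the mole-rats in the same direction. Mgst1 (ENSMUSG00000008540) had 36540, 38082, 35317 and 26722 scaled reads in naked mole-rat, 7111, 9492, 8670, 8856 and 5202 in Damaraland mole-rat, 22149, 18430 and 23842 in guinea pig and 40313 and 23690 in mouse livers. All Damaraland livers were below all others, while naked mole-rat and mouse overlapped. Naked mole-rat livers exceeded Damaraland livers by 2.13 (SE 0.21; limma adjusted p 1.05e-07). Mgst3 (ENSMUSG00000026688) was 4086 to 4626 scaled reads in naked mole-rat livers, 1028 to 2182 in Damaraland and guinea pig livers and 80.2 and 76.1 in mouse livers. Its naked minus Damaraland difference was 1.41 (SE 0.17; limma adjusted p 9.51e-07).

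Of the sulfotransferases, which join sulfate to hydroxyl groups, Sult1c2 (ENSMUSG00000023122) was the only one tested in liver. Its scaled reads were 290, 604, 528 and 646 in naked mole-rat livers and 64.9 and 47.8 in mouse livers, and all 5 Damaraland and all 3 guinea pig livers were at 0. Against a floor of 3 reads per library, the naked mole-rat mean was at least 155-fold higher than in Damaraland and at least 209-fold higher than in guinea pig livers. It was 9.17-fold the mouse mean. Sult1d1 (ENSMUSG00000029273), a sulfotransferase of amines such as dopamine, had 2481 and 1207 scaled reads in mouse livers, 2.76 in naked mole-rat replicate 2 and 0 in every other liver. Its mean fell below the filter, so it was not tested. Against the same floor its mouse mean was at least 552-fold higher than in Damaraland and at least 744-fold higher than in guinea pig livers. Sult1d1 was singled out after its values were seen. Sult2b1, Sult4a1, Sult6b1 and Ugt8a had at most 20 scaled reads in any liver.

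As a share of all reads of a liver library, the 53 genes together took 3.0% ± 0.37 (SD, n = 4) in naked mole-rat, 2.16% ± 0.19 (SD, n = 5) in the Damaraland mole-rat, 3.16% ± 0.58 (SD, n = 3) in guinea pigs and 2.94% ± 0.16 (SD, n = 2) in mice. Every Damaraland liver was below every other liver. The P450 genes took 1.73% in naked mole-rat, 1.64% in guinea pigs and 1.15% in mice on average and 0.603% in Damaraland mole-rat, where the libraries ran from 0.348% to 0.723% and again lay below all others. Cyp2e1 alone reached 1.80% of the reads of a guinea pig liver and was at most 0.292% of a Damaraland liver. The Aldh share was lowest in naked mole-rat (0.396% to 0.494%, against 0.630% or more in every other liver), and the Mgst share was lowest in Damaraland mole-rat (at most 0.0794%, against 0.169% or more). The Gst share was highest in mouse, at 0.441% and 0.515% against at most 0.201%, and the Ephx share lowest there, at 0.121% and 0.137% against 0.240% or more. These shares cover only the genes present here, so they are not the total of a family or of all such enzymes in a species. They are carried by a few abundant genes and were not tested.

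**Figure D2:**
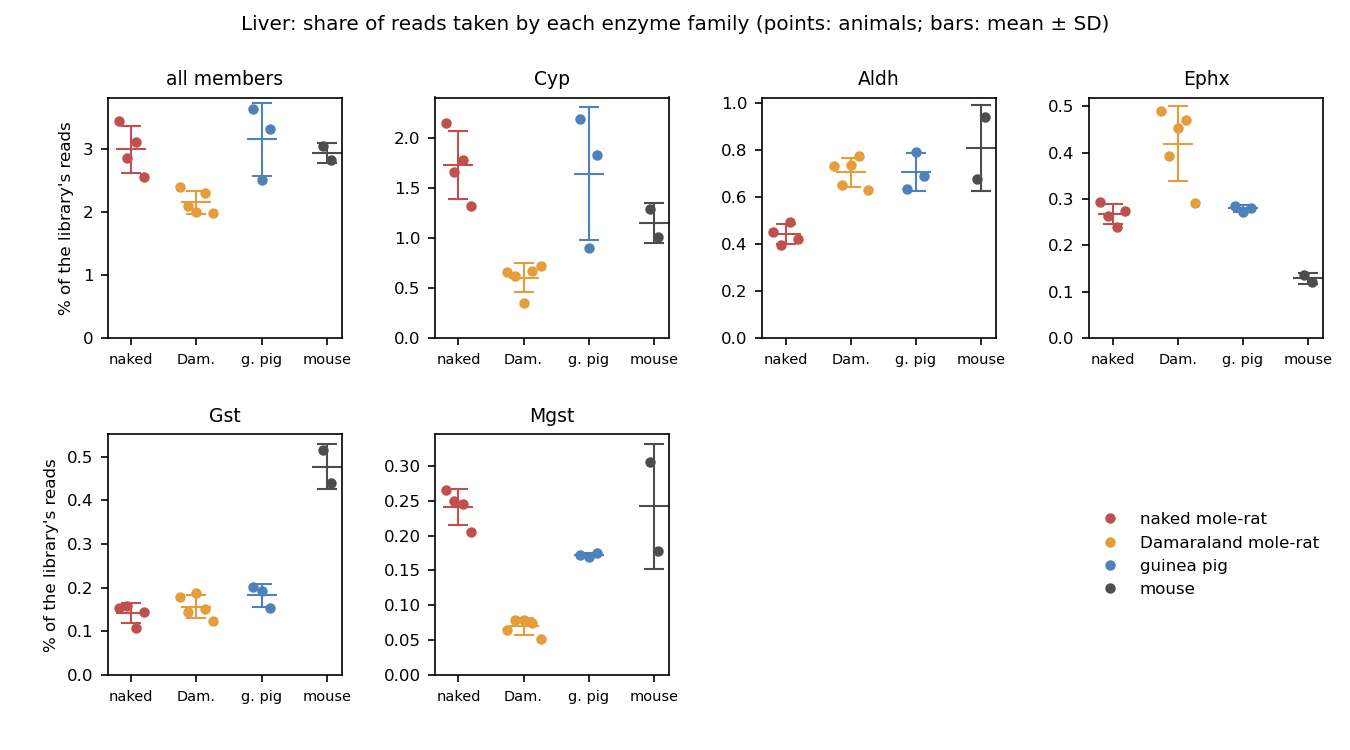
Share of each liver library's reads taken by all 53 genes and by those of them in 5 enzyme families (percent, axes from 0). Points are animals and bars the species mean and SD. Damaraland livers are lowest for all genes together, for Cyp (0.348% to 0.723%) and for Mgst, and mouse livers are highest for Gst and lowest for Ephx.

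Genes that serve these enzymes were counted from lists of their pathway. Of the 10 receptors and sensors tested in liver, 0 were called in either direction in the average of the mole-rats, by limma or by voom on the recovered reads. At a limma p under 0.05 and any size, unadjusted or adjusted, 6 were higher and 1 lower. Of all genes tested, 68% were called in either direction at the adjusted p and any size. Ahr, the aryl hydrocarbon receptor that induces Cyp1a1, was 677 and 749 scaled reads in mouse livers, below the 1195 to 2588 of the others, and was called lower in mouse alone. Its average difference of 0.70 (SE 0.18) was under the size threshold. Nr1i3, the constitutive androstane receptor, was 1.42 higher in naked than in Damaraland mole-rat (SE 0.35; limma adjusted p 0.00194), with Damaraland livers at 300, 494, 323, 423 and 1556 scaled reads. Damaraland replicate 5 lay within the naked mole-rat range of 800 to 1765. Nr1i2, the pregnane X receptor, and Nfe2l2, the sensor of oxidative and electrophile stress, had average differences of 0.55 and 0.20.

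The shares of all genes to read the following counts against are 15.1% higher and 13.0% lower in the average of the mole-rats, and 3.42% and 2.87% in both. Of 5 electron donors tested, 1 was higher and 1 lower on average, near those shares. Por, the reductase that feeds electrons to the microsomal P450s, was 15832 to 19416 scaled reads in naked mole-rat, 6829 to 11796 in Damaraland mole-rat, 13381 to 21602 in guinea pig and 4916 and 7772 in mouse livers. Naked mole-rat livers were above all Damaraland livers (1.07, SE 0.20; limma adjusted p 0.000191) and overlapped those of guinea pig. Of 14 genes of cofactor supply, 1 was higher and 4 lower on average. The 4 called in both mole-rats were Ugp2, of UDP-glucose synthesis, which was higher, and Gclc, Slc35b2 and Slc35d1, which were lower. Gclc, the rate-limiting enzyme of glutathione synthesis, was 542 to 982 scaled reads in naked and 1430 to 2055 in Damaraland mole-rat, 3408 to 5231 in guinea pig and 6794 and 9131 in mouse livers. The species did not overlap, and the average difference was -2.41 (SE 0.16; limma adjusted p 6.89e-10). Ugdh, which makes UDP-glucuronic acid, had an average difference of -0.14. Papss2, which makes the sulfate donor, was 1.13 lower in naked than in Damaraland mole-rat (SE 0.26).

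Against the same shares of all genes (15.1% higher and 13.0% lower on average, 3.42% and 2.87% in both mole-rats), other phase I enzymes outside the families were called higher for 4 and lower for 4 of 16 genes on average, with Dpyd, of pyrimidine drug breakdown, lower in both mole-rats. Nqo1, the quinone reductase, was 50.7 and 52.2 scaled reads in mouse livers and 501 to 1047 in all others. Among other phase II enzymes, 6 were higher and 2 lower of 10, and Acsm5 and Baat, which activate or conjugate carboxylic acids and bile acids, were higher in both mole-rats. Of 11 transporters, 3 were higher and 4 lower. The exporter Abcc4 was higher in both mole-rats, and Abcg2 and Slc47a1 were lower in both. Abcc2, the canalicular exporter of conjugates, had an average difference of 0.26 and was 0.96 higher in naked than in Damaraland mole-rat.

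In heart, 38 of the 53 genes passed the filter. Cyp2f2, Cyp2g1, Cyp2s1, Cyp2w1, Cyp4f39, Cyp4x1, Ugt8a, all 6 Sult genes, Aldh3a1 and Aldh8a1 were not tested, and Cyp2g1 was at 0 in every heart. Cyp1a1, Cyp1a2, Cyp1b1, Gstt3 and Aldh1a3, among others, passed only through the species where they were higher. Their heart p-values have the limit given for liver. Some difference between species was called for 35 of the 38, beside 72.0% of all genes tested. In the average of the mole-rats, 10 were higher and 5 lower, beside 10.8% and 12.6% of all genes. Between the mole-rats, 8 were higher and 10 lower in the naked mole-rat, beside 14.2% and 15.2%. Cardiomyocyte markers differed between the same hearts: their summed share was 2.81% to 5.24% in naked and 9.26% to 11.9% in Damaraland mole-rats. Of the 5 markers, 2 (Myh6 and Ttn) were lower and 1 (Ryr2) higher in the naked mole-rat, and their part in the heart differences was not tested. Cyp1a2 was among the genes called higher in both mole-rats (2 genes, beside 2.06%), and 0 genes were called lower in both (beside 2.62%), by limma or voom. At an unadjusted limma p under 0.05 in all 4 comparisons and any size, 1 was lower.

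Several differences of liver were also seen in heart, measured partly in the same animals. Fmo5 was called lower in the naked mole-rat alone in both tissues, with 51.6, 16.9 and 25.9 scaled reads in its hearts and 165 to 336 in all other hearts. Aldh9a1 was called higher in the Damaraland mole-rat alone in both, with 5835, 3705, 5599, 3028 and 4136 scaled reads in Damaraland hearts and 309 to 1305 in the others. Gstt3 was 2.65 lower in naked than in Damaraland mole-rat heart (SE 0.22; limma adjusted p 3.38e-08), with 5.92, 1.3 and 33.3 against 198 to 463 scaled reads. Aldh1a3 and Aldh5a1 were higher in every mole-rat heart than in every outgroup heart, by 1.32 (SE 0.20) and 1.42 (SE 0.11) on average. In liver this separation held for Aldh1a3, while Damaraland and mouse livers overlapped for Aldh5a1. The naked minus Damaraland difference of Aldh5a1, called in liver, was not called in heart (-0.36 to -0.12 with 1 heart left out at a time). These 5 were singled out after their values were seen.

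Gstp1, Aldh2, Gstm5, Fmo2 and Gsto1 differed between species in another way in heart than in liver. Gstm5 and Fmo2 were called higher in naked than in Damaraland livers. In heart their naked minus Damaraland differences were -2.40 (SE 0.22, limma adjusted p 7.72e-08) and -1.46 (SE 0.32, limma adjusted p 0.000738). Gsto1 was called lower in mouse liver alone and higher in mouse heart alone. Its scaled reads were 1680 to 1906 in mouse hearts and 88.9 to 503 in the others. Cyp1b1 was not tested in liver, where its few reads were also fewest in naked and most in Damaraland mole-rat. Gstp1 was 2109 to 3161 scaled reads in naked mole-rat, 721 to 1302 in Damaraland mole-rat, 2041 to 2739 in guinea pig and 1690 to 1824 in mouse hearts, so the mouse was within the range of the other species there. Cyp1b1, a P450 outside the liver that oxidises estrogens and aromatic hydrocarbons, was 2.54, 1.95 and 0 scaled reads in naked mole-rat hearts, 382 to 1174 in Damaraland, 381 to 555 in guinea pig and 47.5 to 92.2 in mouse hearts. The naked minus Damaraland difference for Cyp1b1 was -3.85 (SE 0.25; limma adjusted p 1.38e-09). Aldh2 had 423, 928, 507, 735 and 1102 scaled reads in Damaraland hearts and 2386 to 4599 in all others, and was called lower in the Damaraland mole-rat alone. The genes of this paragraph were singled out after their values were seen. Tissue and species were not tested together, since the tables of heart and liver were transformed separately.

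The liver P450 genes Cyp2e1, Cyp1a1 and Cyp1a2 were called higher in naked mole-rat hearts than in those of each other species, and Cyp1a2 was also called higher in Damaraland hearts than in those of each outgroup. Cyp2e1 had 2604, 1341 and 2886 scaled reads in naked mole-rat hearts, 111, 256, 64.5, 153 and 151 in Damaraland, 106, 313 and 55.2 in guinea pig and 7.96, 88.7 and 40.9 in mouse hearts. The naked mole-rat hearts were above all others, by 3.41 over Damaraland (SE 0.37; limma adjusted p 7.12e-07). Cyp1a1 had 693, 324 and 641 scaled reads in naked mole-rat hearts and 1.56 to 72.1 in the others. Cyp1a2 had 856, 302 and 507 in naked mole-rat, 104, 185, 49.6, 116 and 108 in Damaraland, 22.7, 22.2 and 5.52 in guinea pig and 5.31, 7 and 7.22 in mouse hearts. Every mole-rat heart was above every outgroup heart for Cyp1a2, by 2.27 on average (SE 0.19; limma adjusted p 3.07e-08).

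Hepatocyte markers moved with these genes in heart. Of 6 hepatocyte markers 5 were tested. In the average of the mole-rats 4 were higher, beside 10.8% of all genes tested. In the naked mole-rat alone 4 were called higher, beside 4.87%. Their summed share of heart reads was 0.0750% to 0.193% in naked mole-rat, 0.0261% to 0.0517% in Damaraland mole-rat, 0.0292% to 0.0446% in guinea pigs and 0.00195% to 0.00663% in mice. Alb had 26192, 8650 and 25737 scaled reads in naked mole-rat hearts, 1452 to 4583 in Damaraland, 321 to 1629 in guinea pig and 233 to 844 in mouse hearts. Serpina6, not tested, was at 0 in most hearts, and Apoa1 was highest in guinea pig hearts. There Apoa1 took 0.0260% of reads on average, beside 0.00745% for Alb, so the guinea pig sum was mostly Apoa1. In guinea pig livers Apoa1 took only 0.000898% of reads. In naked mole-rat, the heart share of reads was 1.09% of the liver share for Alb, 1.31% for Fgb, 0.998% for Ttr and 1.53% for Cps1. For Apoa1 and for Serpina6, the latter at few reads, it was 1.39% and 3.09%. It was 1.25% for Cyp2e1, 1.51% for Cyp1a1 and 1.20% for Cyp1a2, within the range of the markers. For Mgst1, Ephx1, Aldh1l1 and Aldh2 it was 1.76%, 3.88%, 12.5% and 16.5%. In Damaraland mole-rat it was 0.174% for Alb, 0.200% for Cyp1a2 and 0.238% for Cyp1a1, but 1.06% for Cyp2e1 and 5.84% for Apoa1. The part of the hepatocyte markers in the heart differences was not tested.

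**Figure D3:**
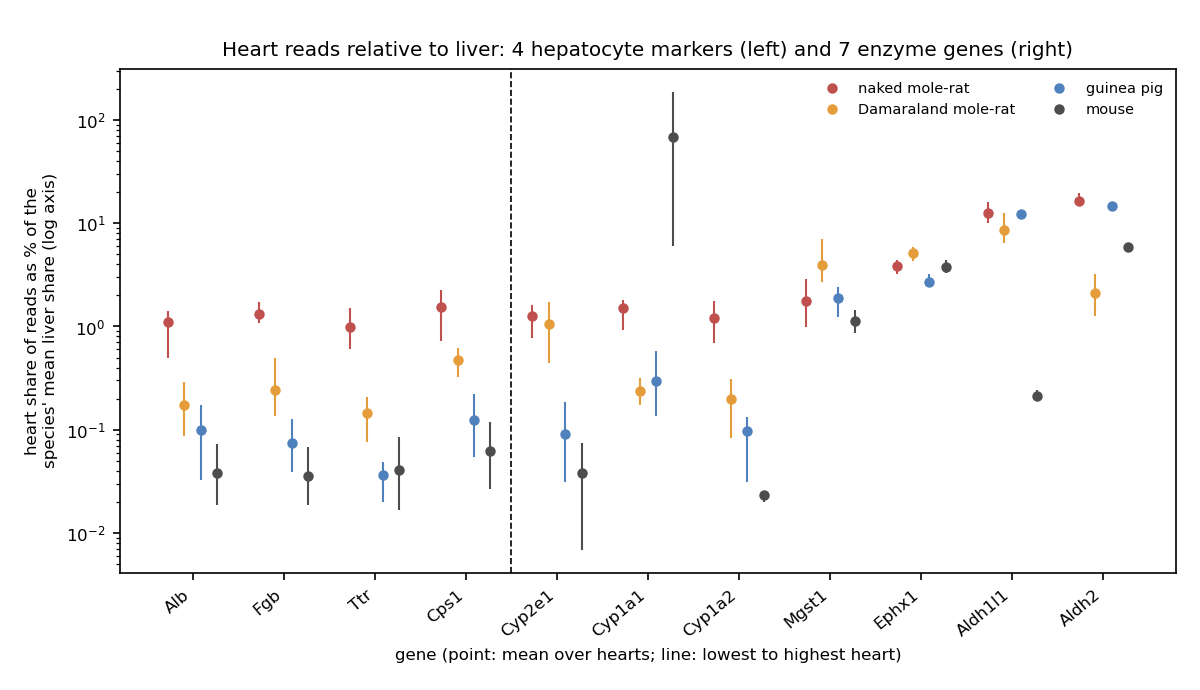
Share of heart reads as a percentage of the same species' mean liver share (log axis) for 4 hepatocyte markers left of the dashed line and 7 enzyme genes right of it. Points are means over hearts and lines run from the lowest to the highest heart; in naked mole-rat Cyp2e1, Cyp1a1 and Cyp1a2 lie at 1.20% to 1.51%, as the markers do at 0.998% to 1.53%.

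The animals that gave both tissues show Cyp2e1 side by side. In Damaraland mole-rats the heart share of Cyp2e1 was 33.1%, 169% and 57.0% of the liver share of the same animal for the 3 animals whose livers were low, and 0.155% for the 1 animal with a higher liver. In 2 naked mole-rats the same measure was 1.46% and 0.591%.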

How the data were processed

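Total RNA depleted of ribosomal RNA was sequenced in 28 libraries, per the labels' protocols. Trimming with cutadapt, quantification with Salmon, DESeq2 and the genome build GRCm38 are named in the submitters' processing notes. The deposited values are on a log2-like scale, and their steps fit a variance-stabilising transformation of counts divided by size factors, done by the authors separately for liver and heart. How genes of the 4 species were matched and how reads of paralogs were split is not given in the sources used here. Each table held 13928 rows, of which 13921 matched a mouse symbol, and 26 columns in all that belong to no sample of this series were not used.

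The transformation was inverted, which gave whole reads (within 0.001) for 100% of values. Genes with a mean at least 1 above the value of 0 reads (4.29 in liver and 5.36 in heart) were tested, 10887 in liver and 10667 in heart. limma 3.58.1 in R 4.3.3 was fitted to the deposited values with a mean per species and a variance trend, with Benjamini-Hochberg adjustment over all genes tested and a size threshold of 1. "Both mole-rats" means called in the same direction against each outgroup in each mole-rat. A species "alone" was called in the same direction against each of the others. The scripts were tested on simulated data.

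Named genes were those called in both mole-rats, up to 6 per species set apart in liver by the size of their smallest difference, the 3 largest in each direction between the mole-rats, and a set with textbook roles. Genes named outside this rule were chosen after their values were seen. Some results are not reported here. The members and lists were chosen with earlier results of these data known. Alternatives changed the size threshold, the filter, the normalisation, the variance model, the replicate number as a block and the libraries included.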

Additional observations from a re-analysis of the deposited data

Results flagged for a closer look

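Within groups of 4 or 5 libraries, 6 values of the named genes lay far from the others of their group, out of 91 checks in both tissues, of which chance gives about 1 in 20. On the log2-like scale, Aldh1a3 was 8.68 in Damaraland liver replicate 1 (371 scaled reads) and 6.97 to 7.43 in the other Damaraland livers. Ephx2 was 13.26 in Damaraland liver replicate 5 (9737 scaled reads) and 13.83 to 14.05 in the others. Fmo2 was 4.88 in Damaraland liver replicate 1 (3.34 scaled reads) and 5.17 to 5.23 in the others. Cyp2f2 was 5.55 in naked mole-rat liver replicate 1 (15.9 scaled reads) and 5.05 to 5.07 in the others. Cyp4f39 was 4.61 in naked mole-rat liver replicate 1 (0.994 scaled reads) and 4.96 in Damaraland liver replicate 5 (4.25 scaled reads), while the other libraries of both groups were at 4.29, the value of 0 reads. The Cyp2f2, Cyp4f39 and Fmo2 values are at very few reads.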

How the results depend on the processing

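For the named genes, no called difference in the average of the mole-rats or between the mole-rats was reversed under any setting run. Directions of the other calls were not checked in this way. Removing the size threshold raised calls among all genes as well as members. Members called in both mole-rats then numbered 8 in liver (5 with it), beside 15.9% of all genes (6.29% with it), and 4 in heart (2 with it), beside 14.8% (4.68%). Those called in the Damaraland mole-rat alone in liver numbered 10 (6 with it), beside 21.5% (8.81%). In heart 26 were called in the average of the mole-rats (15 with it), beside 67.3% (23.4%), and 28 between the mole-rats (18 with it), beside 62.4% (29.4%). When every species had to pass the filter, 2 were called in both mole-rats in liver (beside 5.08% of all genes), 0 in heart (beside 3.75%), where Cyp1a2 was no longer tested, and 11 between the mole-rats in heart (beside 26.4%). Calls in the average of the mole-rats fell from 25 to 17 in liver (beside 23.4%) and from 15 to 10 in heart (beside 19.3%). Between the mole-rats in liver they fell from 19 to 15 (beside 30.3%). Liver calls in 1 species alone were 8 in naked (beside 8.43%) and 4 in Damaraland mole-rat (beside 6.95%). They were 5 in guinea pig (beside 7.9%) and 8 in mouse (beside 11.1%). Leaving out 1 library at a time gave 23 to 27 calls in the average of the mole-rats in liver, 17 to 21 between the mole-rats, 4 to 5 in both, 10 to 11 in the naked mole-rat alone, 5 to 7 in the Damaraland mole-rat alone, 6 to 7 in guinea pig alone and 11 to 13 in mouse alone. In heart it gave 13 to 15 in the average, 18 to 21 between the mole-rats and 2 to 3 in both. The shares of all genes with 1 library left out are not given here. These ranges therefore show only how far the member counts moved. Of 890 such values for named genes in liver, 861 kept their side of the threshold, 21 lost the call and 8 gained it. Without a mouse liver, the 1 left is assumed to vary like the other groups. Without Damaraland livers 4 and 5, an alternative chosen after seeing the data, 25 members were called in the average of the mole-rats and 19 between them. With all livers these counts were 25 and 19, beside 28.1% and 34.2% of all genes. The shares without the 2 livers are not given here.

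Replicate numbers were shared between species but belong to different animals, so they pair no animals. Deviations of same-numbered libraries from their species means had correlations of -0.26 to 0.30. All guinea pig and mouse pairs were positive (0.084 to 0.145). A processing batch shared by number was not tested. With the replicate block, 25 members were called in the average of the mole-rats in liver, 20 between the mole-rats in liver and 20 in heart. Without it the counts were 25, 19 and 18, beside 28.1%, 34.2% and 29.4% of all genes. The shares with the block are not given here. Precision is limited by 2 mouse livers and, in rare genes, by few reads.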
